A study of Drosophila melanogaster with 6 samples.

Results

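Spliceosome and snRNP protein genes were examined in cells sorted from Drosophila embryos. The genes were taken from a list of 40 symbols, and a gene was measured where a probe set of the array carries exactly that symbol alone. For a gene with more than 1 probe set, the brightest by mean over the 6 arrays was used. This gave 32 genes out of 10844 genes with a probe set of their own. LSm3, LSm4, LSm10, LSm11, snRNP-U1-C, snf, Prp31 and hoip were not analysed here. The probe sets were thus selected on their mean level, which is given only as a description. The list itself was drawn up with earlier results of these data known.

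All embryos were of the TinD-GFP genotype, a reporter that the labels describe as a mark of cardiac mesoderm, and were between late stage 11 and early stage 12. They were dissociated and sorted by flow cytometry into GFP-positive cells (3 arrays) and GFP-negative cells (3 arrays), which are all the remaining cells of the same kind of embryo. No further treatment or allele is labelled. Nothing in the labels ties the replicates to separate collections or sorts. The p-values therefore cover the spread among these 6 arrays, and that spread could be technical.

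The spliceosome removes introns from pre-mRNA and is built from small nuclear ribonucleoproteins (snRNPs), each a small nuclear RNA with its proteins. Sm proteins form a ring on the U1, U2, U4 and U5 RNAs, and the related LSm proteins form rings on U6 RNA or, with another subunit, on cytoplasmic mRNA that is being decapped. U1 recognises the 5′ splice site and U2 the branch point. The U4/U6.U5 tri-snRNP and the Prp19 complex then join to form the catalytic machine. Nearly all cells need these proteins.

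In GFP-positive cells 5 of the 7 genes for the Sm ring proteins fell by limma's test, SmD3, SNRPG, SmB, SmF and SmE, and SmD1 and SmD2 did not pass. In all 7 every GFP-positive array lay below every GFP-negative array. The same held for 20.7% of the genes at least as bright as the dimmest of the 32. Among genes of that brightness, short ones tended to be lower. After an adjustment for gene span, described below, SmD3 and SNRPG still passed and the other 5 Sm genes did not. With the span trend taken over all genes, SmD3 alone of the 7 passed. Over the whole set, 6 of 32 genes fell, 0 rose and 26 did not pass, the sixth gene that fell being Phf5a of the U2 snRNP. The test was limma with a level-dependent prior variance, 2-sided, adjusted by Benjamini-Hochberg over 13966 probe sets and read at a threshold of 0.05. Over all those probe sets 0.895% were called lower, and 1.54% were called higher. Among the 3597 genes at least as bright as the dimmest of the 32, 2.78% were called lower, and among the 431 at least as bright as the dimmest Sm gene, 9.98% were. The count of 6 went down to 2, 2 and 3 when GFP-positive replicate 1, 2 or 3 was dropped, and to 4, 4 and 2 when the same was done for GFP-negative replicates 1, 2 and 3. With a single prior variance in place of the level-dependent one, limma called 0 of the 32 genes and 0 of all probe sets, with 10 of the 32 and 1482 of all at an unadjusted p under 0.05.

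The median log2 difference over the 32 genes was -0.19, GFP-positive minus GFP-negative, where it was -0.02 over all 10844 genes and -0.03 over those at least as bright as the dimmest of the 32. A difference below 0 was found for 30 of the 32, against 56.3% of the equally bright genes. The groups did not overlap for 18 genes with GFP-positive cells lower and for 1 gene, Prp3, with GFP-positive cells higher. Of all probe sets 10.2% showed no overlap with GFP-positive lower and 9.47% with GFP-positive higher, and the first share was 20.7% among the equally bright genes. The arrays were deposited at nearly the same median, from 3.71 to 3.73, so these values cannot show a change common to most genes. In sorted bulk cells, fewer cells of a type and less RNA per cell cannot be told apart.

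**Figure D1:**
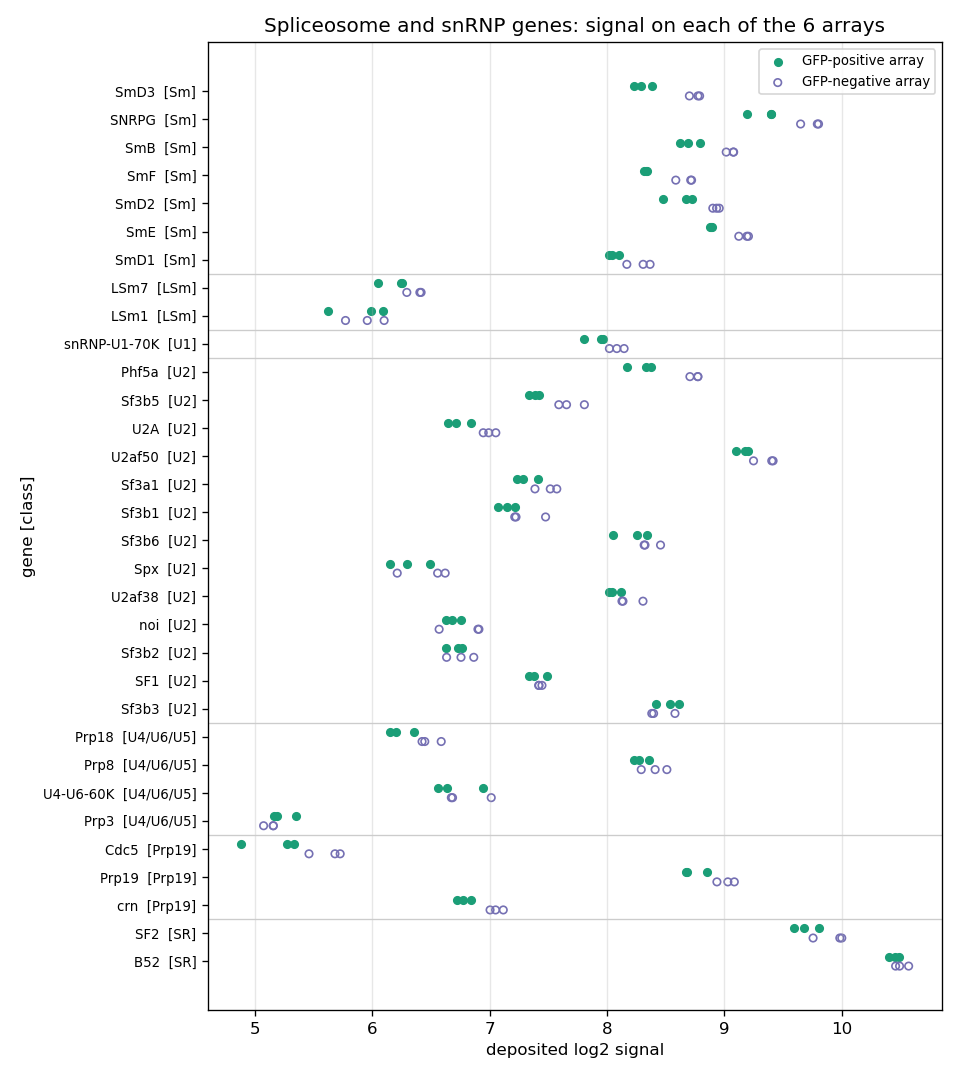
Deposited log2 signal (x axis) of the 32 genes, ordered by class and by difference, on 3 GFP-positive arrays (filled points) and 3 GFP-negative arrays (open points). The points of the groups are apart in all 7 Sm genes and all 3 Prp19 genes, and overlap in 8 of the 13 U2 genes.

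The members differ in annotated gene span, and the difference between the groups moved with span among genes as bright as the members. Among 3591 genes at least as bright as the dimmest of the 32 and with a known span, the decile of shortest spans had a median log2 difference of -0.19 and the decile of longest spans one of 0.27. Spans of the 32 genes ran from 370 to 8741 bp, with a median of 1817 bp. The Sm genes lie between 467 and 1273 bp. A span adjustment was therefore computed as well, in which each array's trend on span was removed over the genes with a mean above 4, a setting chosen after seeing the data. In that set 10 of the 32 genes were called lower before the adjustment, where the share over the set was 5.49%, and 3 after it, namely SmD3, SNRPG and Phf5a, where the share was 2.32%. A span trend taken over all genes left 1 of the 6 calls, SmD3, with 0.387% of all called lower.

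Among the core Sm proteins, SmD3 had the largest difference. Its log2 signal was 8.38, 8.29 and 8.23 on the GFP-positive arrays, against 8.79, 8.78 and 8.70 on the GFP-negative arrays. Every GFP-positive array lay below every GFP-negative array, and the gap between the groups was wider than the spread within either. SmD3 fell by 0.46 ± 0.06 (log2, SE, n = 3 per group, limma adjusted p = 0.00745), which is 27.1% on the linear scale. It stayed past the threshold whichever array was left out, with adjusted p-values of 0.0205 to 0.0498, and after the span adjustment the difference was -0.31 (adjusted p = 0.0146).

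SNRPG, which encodes the fly SmG protein, had 9.40, 9.19 and 9.40 on the GFP-positive arrays, against 9.79, 9.65 and 9.80 on the GFP-negative arrays. The second replicate was the lowest in either group. SNRPG fell by 0.42 ± 0.07 (adjusted p = 0.0205), and by 0.25 after the span adjustment (adjusted p = 0.0437). The call rested on the arrays together, since it held without GFP-negative replicate 2 (adjusted p = 0.0383) and was lost without any other single array, with adjusted p-values up to 0.0963.

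SmB lay at 8.62, 8.69 and 8.80 on the GFP-positive arrays, against 9.02, 9.08 and 9.08 on the GFP-negative arrays, and fell by 0.36 ± 0.06 (adjusted p = 0.0204). For SmF the values were 8.34, 8.31 and 8.33 in GFP-positive cells, against 8.72, 8.59 and 8.71 in GFP-negative cells, and it fell by 0.35 ± 0.06 (adjusted p = 0.0197). SmE was at 8.88, 8.88 and 8.89 in GFP-positive cells, against 9.12, 9.19 and 9.21 in GFP-negative cells, and fell by 0.29 ± 0.05 (adjusted p = 0.0198). In these 3 genes of the ring the groups were apart, and the GFP-positive arrays of SmE and SmF were almost level. After the span adjustment the differences were -0.21 for SmB, -0.18 for SmF and -0.12 for SmE, with adjusted p-values of 0.0785, 0.147 and 0.27. SmB kept its call when GFP-positive replicate 3 or, instead, GFP-negative replicate 1 was left out, SmE without GFP-negative replicate 1 and SmF without GFP-negative replicate 2. Each lost it without any of the other arrays, with adjusted p-values of up to 0.0931 for SmB, 0.0931 for SmE and 0.0923 for SmF.

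The remaining Sm genes did not pass. SmD2, the gene nearest to the threshold on its outer side, as SNRPG was on its inner side, had 8.68, 8.48 and 8.72 on the GFP-positive arrays, against 8.93, 8.90 and 8.96 on the GFP-negative arrays. Its difference was -0.30 ± 0.07 (adjusted p = 0.0645), or -0.14 after the span adjustment. A second probe set of SmD2 had a mean of 2.59, near the background level of 2.44, and gave -0.17 ± 0.51. SmD1 had 8.01, 8.04 and 8.10 in GFP-positive cells, against 8.31, 8.17 and 8.37 in GFP-negative cells, a difference of -0.23 ± 0.07 (adjusted p = 0.136), or -0.085 after the span adjustment. Neither gene's groups overlapped. The median difference of the 7 Sm genes was -0.35. For 585 genes with spans in the Sm range and of at least the brightness named above, the Sm genes themselves among them, the median was -0.18, the lower quartile -0.30 and the share called lower 7.35%. After the span adjustment all 7 Sm differences stayed below 0, with a median of -0.18.

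**Figure D2:**
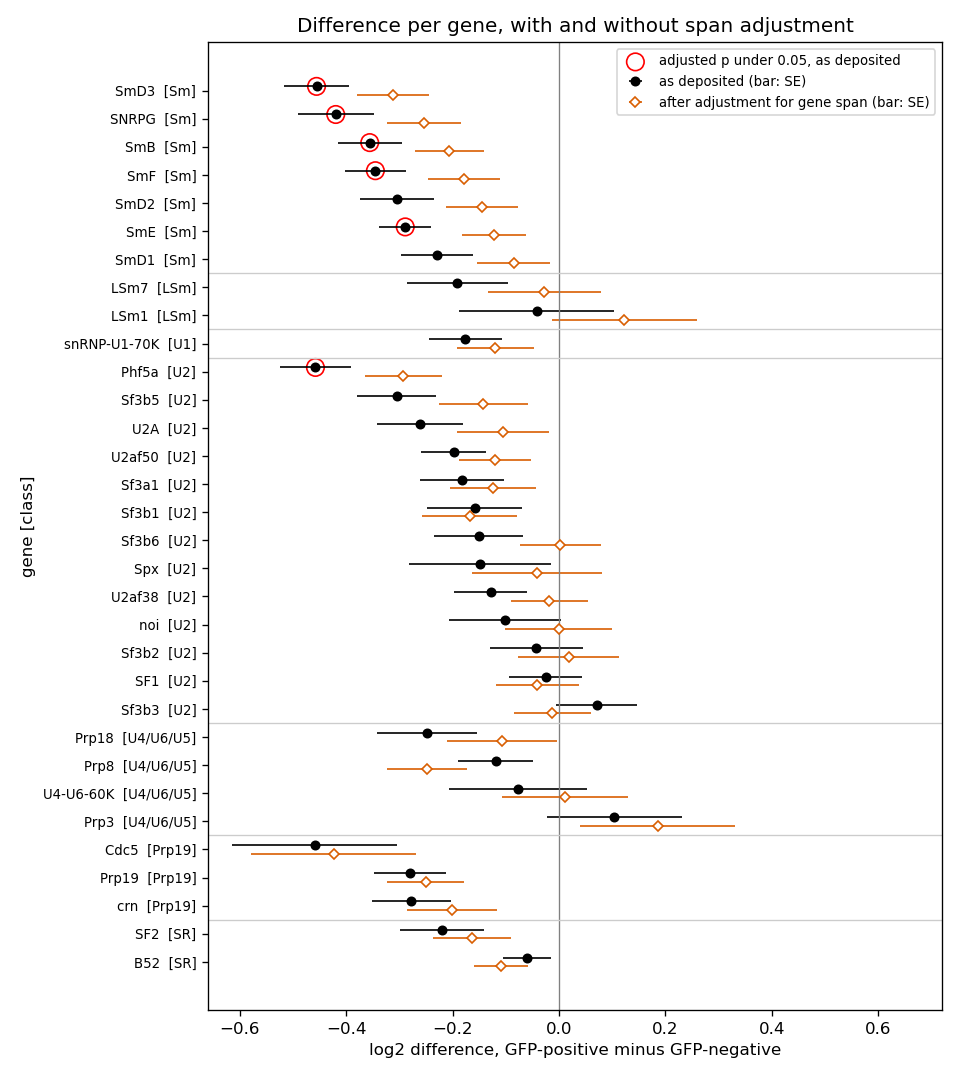
Log2 difference, GFP-positive minus GFP-negative (x axis), for each of the 32 genes as deposited (filled circles) and after the adjustment for gene span over genes with a mean above 4 (open diamonds), with bars of 1 SE. Red rings mark the 6 genes with an adjusted p under 0.05 as deposited. The adjustment moves the Sm genes toward 0 and the Prp19 genes by less, crn the most of these, from -0.28 to -0.20.

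Of the 6 LSm symbols listed 2 were measured, LSm1 of the cytoplasmic decapping ring and LSm7, which is part of both the U6 ring and the decapping ring. LSm1 had 5.63, 6.09 and 5.99 on the GFP-positive arrays, against 5.77, 6.10 and 5.96 on the GFP-negative arrays, so the groups overlapped throughout. Its difference was -0.04 ± 0.15 (adjusted p = 0.94, 95% interval -0.37 to 0.29), and it turned to 0.12 after the span adjustment. LSm7 had 6.25, 6.25 and 6.05 in GFP-positive cells, against 6.42, 6.30 and 6.41 in GFP-negative cells. The groups were apart, but the difference of -0.19 ± 0.09 did not pass (adjusted p = 0.409), and it was -0.03 after the span adjustment, close to 0.

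For the U1 snRNP, snRNP-U1-70K, whose product binds U1 RNA and contacts SR proteins, lay at 7.95, 7.80 and 7.97 on the GFP-positive arrays, against 8.15, 8.08 and 8.02 on the GFP-negative arrays. The groups did not overlap, and the difference of -0.18 ± 0.07 did not pass (adjusted p = 0.272), nor did the -0.12 after the span adjustment.

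Genes of the U2 snRNP and its recruiting factors were the largest class, with 13 measured, of which 1 fell and 12 did not pass. Phf5a encodes a small subunit of SF3b, the U2 subcomplex that holds the branch point. It had 8.37, 8.17 and 8.33 on the GFP-positive arrays, against 8.77, 8.78 and 8.71 on the GFP-negative arrays. The gap between the groups was about as wide as for SmD3. Phf5a fell by 0.46 ± 0.07 (adjusted p = 0.0113), kept its call whichever array was left out (adjusted p up to 0.0481), and differed by -0.29 after the span adjustment (adjusted p = 0.0272). With the span trend over all genes its adjusted p was 0.0522.

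The other SF3b genes did not pass. Sf3b5, another small subunit, had 7.42, 7.39 and 7.34 in GFP-positive cells, against 7.66, 7.59 and 7.81 in GFP-negative cells, a difference of -0.31 ± 0.07 (adjusted p = 0.0781) without overlap of the groups. It has the shortest span of the 32 genes, and after the span adjustment its difference was -0.14 (adjusted p = 0.361). Sf3b3, the large scaffold subunit, was the 1 U2 gene with a difference above 0. Its values of 8.61, 8.54 and 8.42 in GFP-positive cells overlapped the 8.58, 8.40 and 8.38 of GFP-negative cells, with a difference of 0.07 ± 0.08 (adjusted p = 0.754) that was -0.01 after the span adjustment. Sf3b1, the subunit that clamps the branch helix, differed by -0.16 ± 0.09, Sf3b2 by -0.04 ± 0.09, Sf3b6 by -0.15 ± 0.08 and Spx, the fly SF3B4, by -0.15 ± 0.13. The adjusted differences were -0.17 for Sf3b1, 0.018 for Sf3b2, 0.0025 for Sf3b6 and -0.042 for Spx. The long and the short subunits of SF3b thus spread from -0.46 to 0.07, with Phf5a, Sf3b5 and Sf3b6 at spans of 689, 370 and 1056 bp, and Sf3b1 and Sf3b3 at 4568 and 6666 bp.

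Of the remaining U2 genes, U2A, which encodes the U2A′ protein of the U2 core, had 6.71, 6.65 and 6.84 on the GFP-positive arrays, against 6.99, 7.05 and 6.95 on the GFP-negative arrays. Its difference was -0.26 ± 0.08 (adjusted p = 0.156), with the groups apart, and -0.10 after the span adjustment. The U2AF subunits, which bind the polypyrimidine tract and the 3′ splice site, differed by -0.20 ± 0.06 for U2af50 and by -0.13 ± 0.07 for U2af38, with adjusted p-values of 0.156 and 0.451, and by -0.12 and -0.018 after the span adjustment. In U2af50 the groups were apart by a small gap, since its highest GFP-positive array was at 9.20 and its lowest GFP-negative array at 9.25. The SF3a genes Sf3a1 and noi, the fly SF3A3, differed by -0.18 ± 0.08 and -0.10 ± 0.11, and the branch point binding protein gene SF1 by -0.03 ± 0.07 (95% interval -0.18 to 0.13). The span adjustment gave -0.12 for Sf3a1, -0.00087 for noi and -0.041 for SF1. The median of the 13 U2 genes was -0.15, and -0.04 after the span adjustment.

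In the tri-snRNP class 4 genes were measured and 0 passed. Prp18, a factor of the second catalytic step, had 6.20, 6.36 and 6.16 in GFP-positive cells, against 6.45, 6.59 and 6.43 in GFP-negative cells, a difference of -0.25 ± 0.09 (adjusted p = 0.256), or -0.11 after the span adjustment. Prp3, a U4/U6 protein and the dimmest of the 32 genes, had 5.16, 5.19 and 5.35 in GFP-positive cells, against 5.16, 5.16 and 5.08 in GFP-negative cells. Its difference was 0.10 ± 0.13 (adjusted p = 0.792), and the groups barely parted, with the lowest GFP-positive array at 5.163 and the highest GFP-negative array at 5.158. After the span adjustment the difference was 0.19 (adjusted p = 0.515).

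Prp8, the U5 protein at the centre of the catalytic core, lay at 8.27, 8.23 and 8.36 in GFP-positive cells, against 8.29, 8.41 and 8.51 in GFP-negative cells. The groups overlapped, and the difference was -0.12 ± 0.07 (adjusted p = 0.51). With a span of 8741 bp it is the longest of the 32 genes, and the span adjustment took its difference to -0.25 (adjusted p = 0.0715), away from 0. U4-U6-60K, the fly PRP4 of the U4/U6 particle, differed by -0.08 ± 0.13, and by 0.01 after the adjustment.

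All 3 listed genes of the Prp19 complex, which stabilises the catalytic RNA core, were lower on every GFP-positive array than on any GFP-negative array. The same held for 20.7% of the equally bright genes, and 0 of the 3 passed. Prp19, the ubiquitin ligase that names the complex, had 8.68, 8.69 and 8.85 in GFP-positive cells, against 9.03, 8.94 and 9.09 in GFP-negative cells, a difference of -0.28 ± 0.07 (adjusted p = 0.0742). The difference of crn, the crooked neck scaffold protein gene, was -0.28 ± 0.07 as well (adjusted p = 0.102), from 6.84, 6.72 and 6.77 in GFP-positive cells, against 7.05, 7.12 and 7.005 in GFP-negative cells. Cdc5, a Myb-like core subunit, had the widest spread, with 5.27, 4.89 and 5.34 in GFP-positive cells, against 5.46, 5.68 and 5.73 in GFP-negative cells. Its difference of -0.46 ± 0.15 was as large as that of SmD3 and did not pass (adjusted p = 0.197).

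Their spans of 2390 to 3681 bp lie in the middle span deciles of the equally bright genes, where the median differences were -0.08 and -0.04. After the span adjustment the Prp19 genes stood at -0.25, -0.20 and -0.42 for Prp19, crn and Cdc5, with adjusted p-values of 0.0559, 0.187 and 0.136. The class median was thus -0.28 as deposited and -0.25 adjusted, where that of the Sm genes was -0.35 and -0.18. Whether these classes differ was not tested.

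The SR proteins SF2 and B52 bind exonic enhancers and act in both constitutive and regulated splicing. SF2 had 9.80, 9.60 and 9.68 in GFP-positive cells, against 9.98, 9.76 and 10.001 in GFP-negative cells, a difference of -0.22 ± 0.08 (adjusted p = 0.227) with overlap between the groups, or -0.16 after the span adjustment. B52 had 10.49, 10.45 and 10.40 in GFP-positive cells, against 10.49, 10.57 and 10.46 in GFP-negative cells. Its difference was -0.06 ± 0.05 (adjusted p = 0.622), and the 95% interval ran from -0.16 to 0.04. The span adjustment took it to -0.11 (adjusted p = 0.244).

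**Figure D3:**
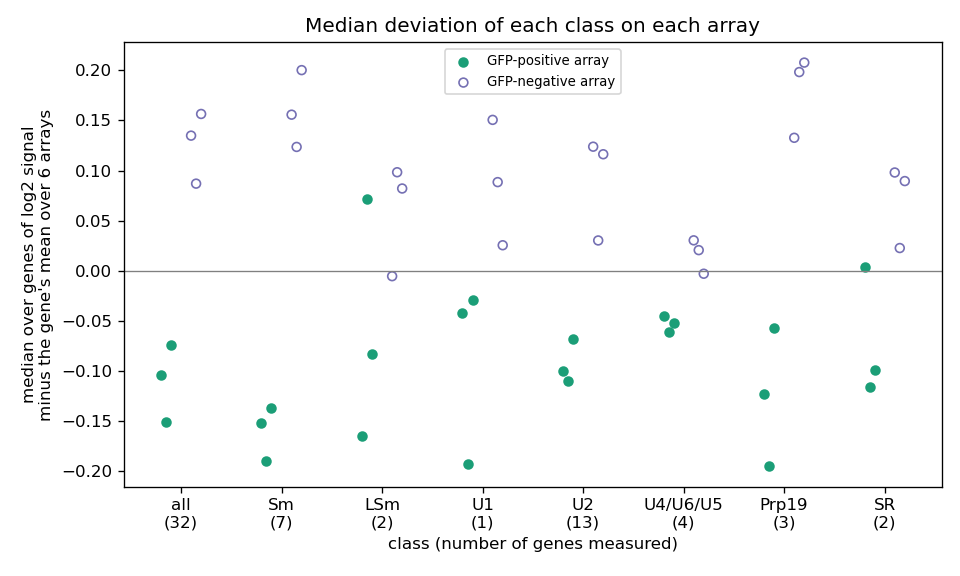
Median over the genes of a class of the log2 signal minus each gene's own mean over 6 arrays (y axis), for each GFP-positive array (filled points) and GFP-negative array (open points), with the number of genes in brackets. For all 32 genes the GFP-positive arrays lie between -0.15 and -0.07 and the GFP-negative arrays between 0.09 and 0.16, and the LSm class overlaps between the groups.

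Array by array, the median deviation of the 32 genes from their own means was -0.10, -0.15 and -0.07 in GFP-positive cells, against 0.13, 0.09 and 0.16 in GFP-negative cells. For the Sm class these medians were -0.15, -0.19 and -0.14 in GFP-positive cells, against 0.16, 0.12 and 0.20 in GFP-negative cells. No single array carried the difference in either case. GFP-positive replicate 2 was the lowest array and GFP-negative replicate 3 the highest for both.

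**Figure D4:**
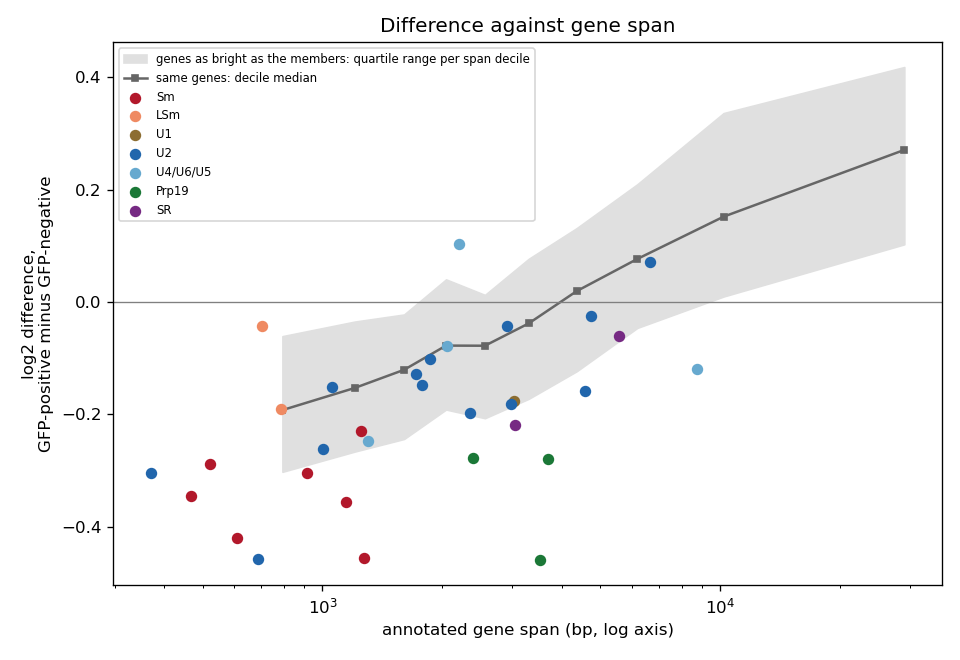
Log2 difference, GFP-positive minus GFP-negative (y axis), against annotated gene span in bp (log axis) for the 32 genes coloured by class. Grey squares are medians and the grey band the range between the quartiles in each span decile of the equally bright genes, whose medians climb from -0.19 to 0.27, and 16 of the 32 genes lie below the band of their own decile.

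Across the 32 genes, the difference went with log10 span with a Pearson's r of 0.50 and a Spearman's rho of 0.50. These are correlations across genes measured on the same arrays, and genes are not independent replicates. Over the 3591 equally bright genes rho was 0.53. Set beside the genes of their own span decile, 27 of the 32 lay below the decile's median and 16 below its lower quartile. Those 16 were 5 of the 7 Sm genes, 4 of the 13 U2 genes, all 3 Prp19 genes, both SR genes, snRNP-U1-70K and 1 tri-snRNP gene, Prp8. The adjusted differences no longer followed span, with a rho of 0.02, and their median over the 32 was -0.12.

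A wider list of 107 splicing-related symbols held 75 measured genes, of which 5 fell, 0 rose and 70 did not pass, where 0.895% of all probe sets were called lower. Among the other core splicing factors, 2 of 28 fell and 27 of 28 differences were below 0, against 52.7% of all genes and the 56.3% of the bright genes named above. Their median was -0.26, and -0.16 after the span adjustment, with 24 of 28 below 0. Adjusted, Prp16 (-0.50, adjusted p = 0.0101) and Prp39 (-0.34, adjusted p = 0.0281) passed, where 2.32% of the probe sets in that fit were called lower. As deposited these genes had not passed, with -0.28 for Prp16 (adjusted p = 0.197) and -0.30 for Prp39 (adjusted p = 0.111). The span of Prp16 is long, 23371 bp, and that of Prp39 is 5253 bp. CG9667, which has the synonym ISY1 for a factor of the Prp19-related complex, fell by 0.54 ± 0.11 (adjusted p = 0.0469), and CG2021 fell by 0.38 ± 0.07 (adjusted p = 0.0241). On the 3 GFP-positive arrays CG9667 had 5.93, 5.74 and 5.86, against 6.49, 6.19 and 6.45 on the GFP-negative arrays. Neither passed after the span adjustment, where CG9667 differed by -0.38 and CG2021 by -0.22.

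Of the 19 splicing regulators measured, SC35, an SR protein gene, was the 1 that fell. It had 9.85, 9.87 and 9.92 on the GFP-positive arrays, against 10.29, 10.20 and 10.19 on the GFP-negative arrays, and fell by 0.35 ± 0.05 (adjusted p = 0.00745). The call held whichever array was left out (adjusted p up to 0.0498) and after the span adjustment (-0.31, adjusted p = 0.004), but a second, dimmer probe set of SC35 gave 0.10 ± 0.19, so its probe sets disagree. The median of the regulators was 0.04, the differences ran from -0.35 to 0.39, and 7 of the 19 were below 0. Adjusted for span, heph (-0.48, adjusted p = 0.0183) and Doa (-0.27, adjusted p = 0.0415) passed with SC35. In that fit 2.32% of the probe sets were called lower. As deposited, heph differed by -0.20 ± 0.12 (adjusted p = 0.506) and Doa by -0.05 ± 0.06 (adjusted p = 0.818), both with overlapping groups. Their spans are long, 168534 bp for heph and 34700 bp for Doa.

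RnpS1, a factor that joins the exon junction complex on spliced mRNA, had 8.01, 7.99 and 7.998 in GFP-positive cells, against 8.30, 8.43 and 8.51 in GFP-negative cells. It fell by 0.41 ± 0.07 (adjusted p = 0.0167) and differed by -0.30 after the span adjustment (adjusted p = 0.0196). With the span trend over all genes RnpS1 did not pass, at -0.33 (adjusted p = 0.056). The 4 other exon junction genes did not pass as deposited. Slbp, whose product binds the stem-loop of histone mRNA that the U7 snRNP processes, fell by 0.27 ± 0.06 (adjusted p = 0.0438), and differed by -0.12 after the span adjustment (adjusted p = 0.308). Its call was lost whichever array was left out (adjusted p of 0.0856 to 0.157). CG2021 likewise lost its call whichever array was left out, with adjusted p-values of 0.0519 to 0.112. RnpS1 kept its call without GFP-negative replicate 1, CG9667 without GFP-negative replicate 2, and both lost it without any other array. Of the snRNP assembly genes, among them Smn, Gem2 and the methylosome gene vls, all 11 differences were below 0 with a median of -0.22, against 52.7% of all genes, and 0 passed. One of them, rig, had a mean of 0.99, below the background level. After the span adjustment, which covers the other 10, 9 were below 0 and the median was -0.14. The 6 genes of mRNA decapping, where LSm1 acts, had a median of 0.12 and 0 passed.

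Marker genes moved between the sorted groups as follows. Of the somatic muscle markers 5 of 6 rose, where 1.54% of all probe sets were called higher. Of the markers listed as pan-mesodermal 3 of 6 rose, namely if, bap and Him, and the others of that list did not pass. Of the cardiac mesoderm markers 0 of 12 passed, with lbl and lbe below background in both groups. The log2 of the summed level of the 12 cardiac markers was 8.95 to 9.06 in GFP-positive cells, against 8.97 to 9.16 in GFP-negative cells, and the ranges overlapped. The log2 of the summed level of the 6 muscle markers was 9.29 to 9.44 in GFP-positive cells, against 8.38 to 8.44 in GFP-negative cells. For the markers listed as pan-mesodermal it was 9.33 to 9.37 against 8.78 to 8.92. Hemocyte markers summed to 9.97 to 10.05 in GFP-positive cells, against 9.69 to 9.71 in GFP-negative cells, and 2 of 9 rose, Ppn and vkg. In the germline list 1 of 5 rose, tud, with a sum of 7.65 to 7.71 in GFP-positive cells, against 7.20 to 7.31 in GFP-negative cells, and vas below background in both. Epidermis markers summed to 8.20 to 8.34 in GFP-positive cells, against 7.90 to 8.17 in GFP-negative cells, without overlap, and 0 of 5 passed, with sha and Tb below background in both. Neuroblast markers summed to 9.95 to 10.04 in either group, and the sums of the neuron, midgut and trachea markers overlapped between the groups, with 0 passing. Their part in the differences of the splicing genes was not tested.

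The 3′ excess of the actin and eIF-4a controls, a sign of RNA quality, overlapped between the groups. The 3′ signal of actin exceeded its 5′ signal by 1.22 to 1.48 (log2) on the GFP-positive arrays, against 1.27 to 1.36 on the GFP-negative arrays. For eIF-4a this excess was 2.13 to 2.19 in GFP-positive cells, against 2.11 to 2.45 in GFP-negative cells. The 18S rRNA signal of the 3′ control was 5.25, 5.87 and 7.12 on the GFP-positive arrays, against 4.77, 5.66 and 6.86 on the GFP-negative arrays, and that of the middle control 6.10, 5.86 and 7.57 against 5.05, 5.57 and 7.82. The 18S signals overlapped between the groups, the third replicate was the highest in either group, and for the 3′ control the GFP-positive array was the higher of every same-numbered pair. Their part in the differences was not tested. Between arrays, Pearson's r over the tested probe sets averaged 0.932 within groups and 0.930 between groups.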

How the data were processed

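RNA of sorted cells was hybridised to Affymetrix Drosophila arrays, 3 of GFP-positive and 3 of GFP-negative cells, and the titles gave the groups. The values the authors deposited are log2 signals, 1 for each probe set on each array. The affy package is named in the submitters' processing notes, but no source used here states the background correction, the scaling or the summary method, and the log base was read as 2 from the range of the values. No further scaling was applied. The number of arrays limits precision.

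Of 14010 probe sets, 13966 were tested and 44 were array controls. The highest mean of 23 controls for other organisms, 2.44, is the background level, and all 32 genes lay above it, the dimmest at 5.18. By the platform annotation 12443 probe sets have 1 gene, 327 have several and 1196 have none. Of those with 1 gene, 12394 matched by Entrez identifier to the RefSeq table of fly assembly Release 6, which gave the spans of the wider array and of all 32 genes.

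The fit was limma 3.58.1 in R 4.3.3 (lmFit, eBayes with trend and robust options, 2-sided, threshold 0.05). It was tested on simulated data with independent noise whose spread was set by the level alone. That test cannot decide which prior variance suits these arrays. The level-dependent fit was chosen knowing that a single prior variance calls no probe set in these data. The members, classes and lists were chosen with earlier results of these data known. Genes named with values are the members, and genes of the wider list past the threshold. Values on every array are printed for members past or next to the threshold and for the extremes of each class, and for a few others chosen after their values were seen. The span trend was a lowess curve (fraction 0.3) per array of the deviation from the probe set's mean on log10 span. Alternatives were a single prior variance, a replicate block, quantile normalization, median centring, a pseudocount of 32, leaving out the dimmest 40% of probe sets, array weights, the span adjustment, the mean of a gene's probe sets, and leaving out each array. No sequences were used here.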

Additional observations from a re-analysis of the deposited data

How the results depend on the processing

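Of the 32 genes, all kept their direction and their side of the threshold under quantile normalization, median centring, the pseudocount, array weights, and averaging of a gene's probe sets. With a single prior variance the calls were 0 of 32 genes and 0 of all probe sets. Without the dimmest probe sets 655 probe sets passed and 9 of the 32 genes. With the span trend over all genes 142 probe sets and 1 of the 32 genes passed, and the median of the 32 was -0.15. Among genes with a mean above 4, alternatives chosen after seeing the data, 695 probe sets and 10 of the 32 passed without the adjustment, and 342 and 3 with it, where the median was -0.12. Leaving out 1 array gave 102 to 189 probe sets, 2 to 4 of the 32 genes and a median of -0.23 to -0.18. In these fits fewer arrays were tested.

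Signs turned in genes with differences near 0. With the span trend over all genes LSm1 was at 0.049, Sf3b2 at 0.0016 and Sf3b3 at -0.0016. Over genes with a mean above 4 LSm1 was at 0.12, Sf3b2 at 0.018, Sf3b3 at -0.012, Sf3b6 at 0.0025 and U4-U6-60K at 0.011. Leaving out 1 array gave -0.14 to 0.096 for LSm1, -0.070 to 0.0068 for SF1, -0.10 to 0.014 for Sf3b2 and -0.19 to 0.034 for U4-U6-60K. None of these was past the threshold in any setting. The cause was not tested.

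With replicate number as a block 8 of the 32 genes and 437 probe sets passed, SmD2 (adjusted p = 0.0359) and Prp19 (0.0319) in addition to the 6, and Slbp no longer did (0.0515). Deviations of same-numbered arrays from their group means correlated at 0.08, 0.02 and 0.02 over 8943 probe sets above background, all below the 0.1 set for taking the arrays as paired. The 18S rRNA signal of the 3′ control did rise with the replicate number in both groups. That of the middle control did so in GFP-negative cells only. For both controls the third replicate was the highest in each group. GFP-positive replicate 2 did not correlate best with its own number. For single genes of the wider list, the mean of all probe sets took SC35 to -0.12 (adjusted p = 0.502), and the pseudocount took the adjusted p of CG9667 to 0.0552.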
